A study of Homo sapiens with 12 samples.

Results

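Cells kept for 48 h in 5 mM glucose with 25 µM cariporide were compared with cells kept in 10 mM glucose without the drug. The cells were MDA-MB-231, an established human line of triple-negative breast cancer whose genotype the labels give as wild type, grown in RPMI with fetal bovine serum and no antibiotics. The 3 libraries of the combined treatment (LGCAR) and the 3 of the untreated group (NG) made up 6 of the 12 libraries of the series, and the groups were taken from the sample labels. The other 6 were cells given cariporide at 10 mM glucose (CAR, 3 libraries) and cells at 5 mM glucose without cariporide (LG, 3 libraries). Of 40929 gene symbols, 15104 passed the filter on low counts and were tested.

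Cariporide is an inhibitor of sodium-proton exchange, by which a cell exports protons. Cancer cells that ferment glucose make much lactic acid and often rely on proton export. Glucose supply is read in these cells by MondoA and related factors, which switch on TXNIP and ARRDC4 when sugar phosphates accumulate. A shortage of amino acids or a load of unfolded protein instead raises the factor ATF4 and the folding factors of the endoplasmic reticulum.

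Markers were read against the labelled cell type. The mesenchymal markers VIM, FN1 and CD44 and the keratins KRT8 and KRT18, all typical of this line, were abundant in all 6 libraries. The luminal receptor PGR, the basal keratin KRT5, the fibroblast marker DCN, the lymphocyte marker CD3E, the endothelial marker CLDN5 and the mesenchymal factor TWIST1 had no count in any of the 6. Other markers of these cell types did have counts. The highest count in a library was 1413 for CD68, 1339 for ERBB2, 244 for PDGFRB, 180 for COL1A1 and 82 for KDR. The mesenchymal genes CDH2 and SNAI1 were scarce, with at most 28 and 39 counts, against 41597 for VIM. Library totals were 20771898 to 23372248 counts in NG and 18069004 to 20464308 in LGCAR. Cytosolic ribosomal RNA took 9.48% ± 1.67 of the counts in NG and 10.2% ± 1.12 in LGCAR, and mRNA of the mitochondrial genome took 5.87% ± 0.502 and 5.19% ± 0.283 (SD, n = 3 each). The sources do not state whether replicate libraries stem from different cultures. If they do not, p-values reflect technical spread among libraries alone.

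With both treatments, 1322 of the 15104 tested genes (8.75%) passed an adjusted p of 0.05, 700 higher (4.63%) and 622 lower (4.12%) in LGCAR than in NG. Genes were tested by edgeR's quasi-likelihood method, p-values were adjusted over all tested genes after Benjamini and Hochberg, and a gene that passed is called higher or lower below. In bulk RNA, fewer cells of a type and less RNA per cell cannot be told apart. The changes were small. The median absolute log2 change of called genes was 0.30, 31 of them were past 2-fold, and the median log2 fold change over all tested genes was 0.01. Of all tested genes 48.3% had a log2 fold change below 0. The counts of list members below are to be read beside these shares over all tested genes. Calls depended on which libraries were present: leaving out NG 1, NG 2 or NG 3 gave 1544, 293 and 136 called genes, leaving out LGCAR 1, LGCAR 2 or LGCAR 3 gave 197, 324 and 335, and 116 genes (54 higher, 62 lower) were called in all 6 of these fits. Genes given below with their values in each library stayed called with any one of the 6 libraries left out, unless a loss is stated.

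Transcript length moved with the comparison. The longest transcript of a gene had a median of 3592 bases over the tested genes with a known length (90.5%), 6454 bases among genes called higher and 2493.5 among genes called lower. Median GC content was 48.3%, 45.9% and 51.0% in the same order. Of 4 equal groups of genes ordered by length, the one with the longest transcripts had 445 genes called higher and 35 lower, and the one with the shortest had 20 called higher and 261 lower. All 3 LGCAR libraries stood above the NG mean for the longest transcripts, with median log2 differences of 0.18, 0.13 and 0.14, while NG 1 to 3 were at 0.06, -0.01 and -0.06. Libraries of other groups reached similar values, as CAR 2 (0.11), CAR 3 (0.11) and LG 1 (0.13) did. When a trend on length and GC content was removed from each library, 1465 genes were called, 651 higher and 814 lower, and 904 of the 1322 genes kept their call and direction. The part of this trend in the results below was not tested, and for called genes given with a value below, the value with the trend removed is stated where it moved by over 1.5 times.

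**Figure D1:**
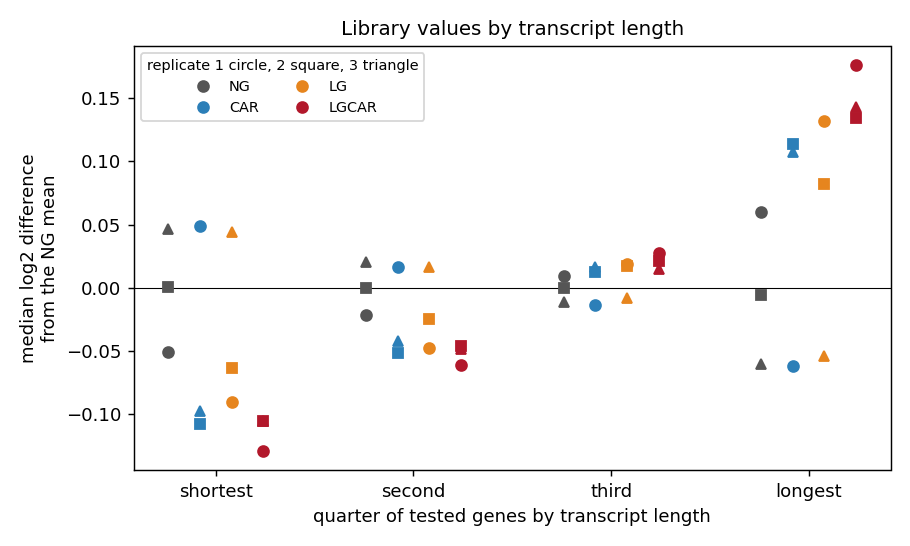
Median log2 difference of each library from the mean of the NG libraries (vertical axis), for 4 equal groups of the tested genes ordered by transcript length (horizontal axis); colours mark the groups and symbols the replicates. The LGCAR libraries lie at 0.13 to 0.18 for the longest transcripts, and CAR 1 (-0.06) and LG 3 (-0.05) lie apart from the other libraries of their groups.

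Several genes of the cell surface and of endosomal sorting were higher after the combined treatment. TGFBR3, which encodes the TGF-beta coreceptor betaglycan (chromosome 1, 91680343 to 91906002, GRCh38.p14 as for all coordinates), was at 15.5, 16.2 and 13.8 CPM in NG 1 to 3 and 23.9, 24.5 and 23.2 CPM in LGCAR 1 to 3. CPM here are counts scaled to a common library size with TMM factors. TGFBR3 was 1.57-fold higher on average (log2 fold change 0.65 with SE 0.0808, adjusted p = 0.000591 by edgeR). All LGCAR libraries lay above all NG libraries, but the rule that chose the 12 largest rises and 12 largest falls required such a separation. SORL1, a sorting receptor of endosomes (chromosome 11, 121452314 to 121633763), rose from 24.4, 26.8 and 25.1 CPM to 39.3, 38.8 and 38.8 CPM (log2 fold change 0.62 with SE 0.0757, adjusted p = 0.000591 by edgeR), and its log2 fold change was 0.38 with the trend removed. NTNG2, a membrane-anchored netrin (chromosome 9, 132161689 to 132244526), went from 6.68, 6.04 and 5.39 CPM to 9.13, 9.82 and 9.57 CPM (log2 fold change 0.66 with SE 0.1096, adjusted p = 0.00458 by edgeR). The log2 fold changes of the single treatments against the same NG libraries were 0.48 in LG and 0.11 in CAR for TGFBR3, 0.41 and 0.10 for SORL1, and 0.56 and 0.24 for NTNG2. ACTR3C, related to a subunit of the actin-nucleating Arp2/3 complex, was at 10.9, 11.2 and 10.4 CPM in NG and 15.95, 16.3 and 18.6 CPM in LGCAR (log2 fold change 0.64 with SE 0.108, adjusted p = 0.00458 by edgeR), and its changes with the single treatments were 0.16 in LG and 0.11 in CAR. Its call was lost when NG 1 and LGCAR 3, the libraries of these groups richest in ribosomal RNA, were left out together.

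Other genes among the 12 largest rises included ATP8A1, which stayed called, and several that lost their call without 1 library. ATP8A1, a flippase that moves phospholipids to the inner leaflet of membranes, was at 6.28, 6.34 and 5.79 CPM in LGCAR against 3.88, 3.19 and 2.803 CPM in NG. NT5DC3, a gene with a nucleotidase domain, rose by 0.62 on the log2 scale and lost its call without NG 2, NG 3, LGCAR 1, LGCAR 2 or LGCAR 3 (adjusted p up to 0.126). ZFHX4, a zinc finger homeobox factor with a transcript of 14019 bases, rose by 0.62, or 0.35 with the trend removed, and lost its call without NG 2, NG 3, LGCAR 1, LGCAR 2 or LGCAR 3 (adjusted p up to 0.168). SLC35E2A rose by 0.64 and lost its call without NG 3 (adjusted p up to 0.0571), and 21.5% of its exon length overlaps a gene on the opposite strand.

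The largest falls included the secreted proteins LCN2 and IGFBP1, a non-coding transcript and a Notch target. LCN2, a lipocalin that binds iron-carrying siderophores (chromosome 9, 128149453 to 128153453), fell from 119.7, 112 and 141 CPM to 75.5, 76.4 and 71.3 CPM (log2 fold change -0.74 with SE 0.109, adjusted p = 0.00458 by edgeR). LCN2 was 1.67-fold lower on average, and NG 3 stood above NG 1 and NG 2. IGFBP1, a secreted binding protein of insulin-like growth factors (chromosome 7, 45888488 to 45893660), fell from 44.8, 42.6 and 47.1 CPM to 29.8, 28.4 and 28.5 CPM (log2 fold change -0.63 with SE 0.0812, adjusted p = 0.000818 by edgeR). MIR22HG, the non-coding host transcript of a microRNA (chromosome 17, 1711504 to 1716210), fell from 29.4, 30.3 and 33.8 CPM to 20.2, 20.3 and 20.1 CPM (log2 fold change -0.63 with SE 0.0717, adjusted p = 0.000283 by edgeR), with LGCAR libraries that differed from each other by less than 0.2 CPM. The single treatments changed LCN2 by -0.35 in LG and -0.18 in CAR, IGFBP1 by -0.37 and -0.27, and MIR22HG by -0.47 and 0.02. HES1, a transcriptional repressor downstream of Notch (chromosome 3, 194136148 to 194138732), was at 15.1, 15.03 and 13.8 CPM in NG and 8.44, 9.09 and 8.98 CPM in LGCAR (log2 fold change -0.73 with SE 0.136, adjusted p = 0.008402 by edgeR), and it lost its call without LGCAR 1 (adjusted p up to 0.0513). For HES1 the single treatments gave -0.19 in LG and 0.02 in CAR.

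**Figure D2:**
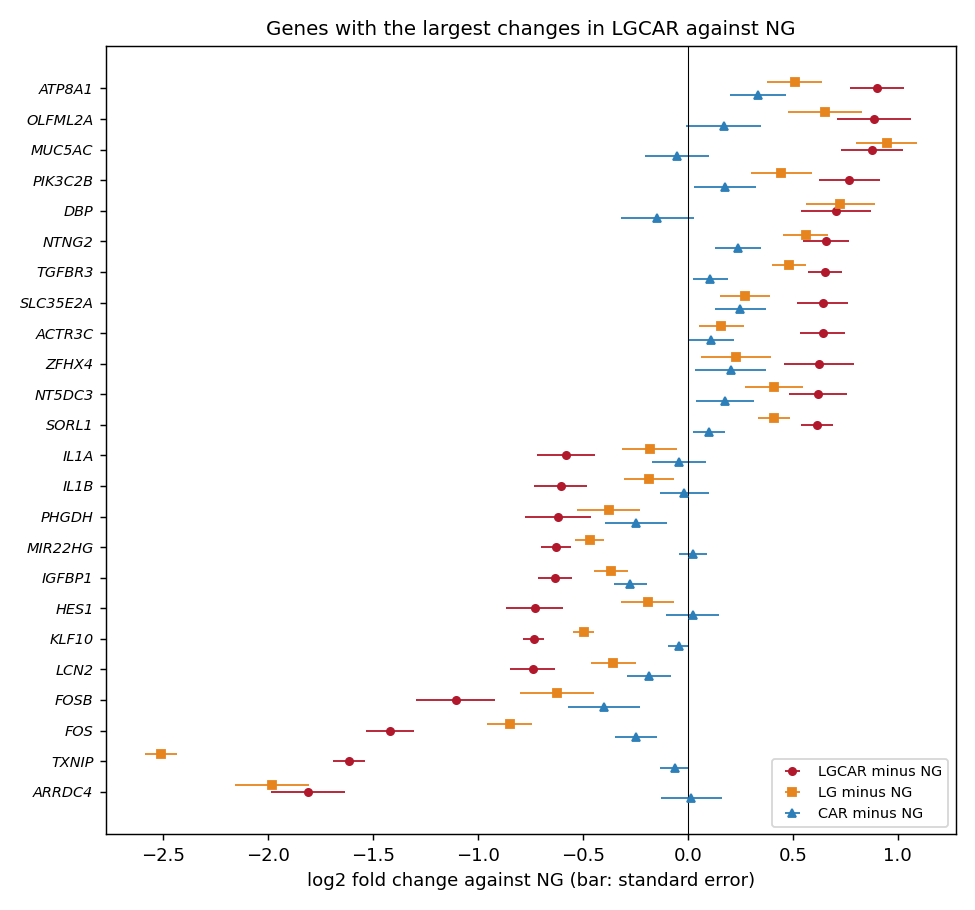
Log2 fold change against NG (horizontal axis, bars show the standard error) of the 12 highest and 12 lowest genes in LGCAR, chosen by their LGCAR values, with the LG and CAR values of the same genes; all 3 comparisons share the NG libraries. TXNIP has an LG value (-2.51) beyond its LGCAR value (-1.61), and ACTR3C, HES1, IL1A and IL1B have LG and CAR values within 0.20 of 0.

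Interleukin 1 was lower with the combined treatment. IL1B, a secreted inflammatory cytokine, was at 6.73, 6.57 and 6.97 CPM in NG and 4.86, 3.59 and 4.84 CPM in LGCAR (log2 fold change -0.60 with SE 0.126, adjusted p = 0.0127 by edgeR), and its call was lost without NG 3 or LGCAR 2 (adjusted p up to 0.0651). IL1A fell from 30.3, 26.6 and 29.6 CPM to 17.8, 21.8 and 18.3 CPM (log2 fold change -0.58 with SE 0.136, adjusted p = 0.0266 by edgeR) and lost its call without NG 2, NG 3, LGCAR 1 or LGCAR 3 (adjusted p up to 0.123). The single treatments gave -0.19 in LG and -0.02 in CAR for IL1B, and -0.18 and -0.04 for IL1A. Of 19 tested cytokines and chemokines, 3 were lower (these 2 and IL11) and 0 were higher, with a median of -0.14 in LGCAR, 0.11 in LG and -0.02 in CAR. IL11 lost its call without any one of the 6 libraries, and with the length trend removed its adjusted p was 0.0512. Of 17 subunits and targets of NF-kB, NFKBIB (-0.44) and CD83 (-0.43) were lower and BIRC3 was higher (0.20). NFKBIB lost its call without NG 3, LGCAR 1 or LGCAR 3 (adjusted p up to 0.06197), CD83 without NG 2, NG 3, LGCAR 1, LGCAR 2 or LGCAR 3 (adjusted p up to 0.0857) and BIRC3 without NG 2, NG 3, LGCAR 1 or LGCAR 2 (adjusted p up to 0.0976). None of 28 interferon-stimulated genes was called by edgeR or DESeq2, and 12 had an unadjusted p under 0.05. The share of all tested genes under that unadjusted p against NG is not given here, for this list or for those below.

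Known elements for glucose and folding stress lie in promoters of several called genes, and 6 are printed here, chosen after their values and matches were seen, because they show the sites that the gene groups below are known for. Sequences are from the RefSeq promoter table (GRCh38.p14), which holds 250 bases before to 50 bases after each annotated start and had an entry for 11630 of the tested genes. Each run reads 5′ to 3′ on the strand of its gene, with up to 40 bases on each side of the site, and capitals mark the match.
TXNIP: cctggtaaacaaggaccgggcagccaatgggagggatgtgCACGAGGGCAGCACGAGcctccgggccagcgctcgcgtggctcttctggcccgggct
HSPA5: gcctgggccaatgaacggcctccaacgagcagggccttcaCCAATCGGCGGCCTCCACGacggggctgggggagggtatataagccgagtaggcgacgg
CRELD2: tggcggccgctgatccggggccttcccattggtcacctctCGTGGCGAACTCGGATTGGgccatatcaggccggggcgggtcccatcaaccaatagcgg
PDIA6: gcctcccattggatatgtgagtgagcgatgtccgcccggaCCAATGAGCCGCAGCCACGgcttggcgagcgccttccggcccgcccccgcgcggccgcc
ASNS: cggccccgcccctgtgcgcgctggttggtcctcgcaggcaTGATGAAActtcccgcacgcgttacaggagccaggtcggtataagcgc
GARS1: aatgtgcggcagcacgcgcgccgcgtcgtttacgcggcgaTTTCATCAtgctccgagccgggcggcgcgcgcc
The TXNIP run (chr1:145996611-145996707 on the minus strand) holds the carbohydrate response element, 2 copies of CACGNG with 5 bases between them, which begins 88 bases before the start. HSPA5 (chr9:125241351-125241449 on the minus strand), CRELD2 (chr22:49918514-49918612 on the plus strand) and PDIA6 (chr2:10812813-10812911 on the minus strand) hold the endoplasmic reticulum stress element, CCAAT and CCACG with 9 bases between them, in CRELD2 on the opposite strand. ASNS (chr7:97872429-97872516 on the minus strand) and GARS1 (chr7:30594805-30594877 on the plus strand) hold TGATGNAA, a site for ATF4 with its partners, in GARS1 on the opposite strand.

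Over all promoters the 2 longer elements were rare. A gene was counted if any of its windows held a match on either strand. The carbohydrate response element was present in 0.138% of the tested genes with an entry, among them TXNIP, 1 of 8 glucose-sensing targets, whereas ARRDC4 held an E-box, CACGTG, which 12.1% of these genes hold. The stress element was also present in 0.138% of tested genes, and in 7 of 23 folding genes of the endoplasmic reticulum (30.4%): HSPA5, HSP90B1, CALR, CANX, PDIA6, CRELD2 and XBP1. Of the 516 genes called lower that had an entry, 5 held it (0.969%), namely HSPA5, HSP90B1, PDIA6, CRELD2 and SERP1, and of the 535 called higher none did. TGATGNAA was present in 2.74% of tested genes, 3.49% of genes called lower and 2.99% of genes called higher. It was present in 7 of 16 aminoacyl-tRNA synthetases (43.8%), 6 of 18 amino acid transporters (33.3%) and 3 of 13 enzymes of amino acid synthesis (23.1%). The cAMP response element TGACGTCA was present in 3.70% of tested genes, 4.07% of those called lower and 2.80% of those called higher. A match is a description of these letters only, and no overlap between the motifs was taken into account.

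Of the folding genes of the endoplasmic reticulum, 14 of 25 were called lower. HSPA5, the main HSP70 chaperone of the organelle (chromosome 9, 125234853 to 125241343), was at 4671, 4580.2 and 4977 CPM in NG and 3686, 3729 and 3680.0 CPM in LGCAR (log2 fold change -0.36 with SE 0.0517, adjusted p = 0.001799 by edgeR). Its LGCAR libraries lay within 50 CPM of each other and below every NG library. None was called higher, 4.12% and 4.63% of all tested genes being called lower and higher. The median log2 fold change was -0.18, and 6 members were above 0, up to 0.42. HYOU1 (-0.30) and DNAJB9 (-0.34), a chaperone and a cochaperone, kept their calls with any library left out. Of the 7 members with the stress element, HSP90B1 (-0.24), PDIA6 (-0.19), CRELD2 (-0.42) and HSPA5 were lower, while CALR (-0.10, adjusted p = 0.177), CANX (-0.08, adjusted p = 0.2999) and XBP1 (-0.17, adjusted p = 0.154) were not called. Lower members numbered 13, 8 and 4 with NG 1, 2 and 3 left out in turn and 7, 8 and 7 with LGCAR 1, 2 and 3 left out in turn.

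Among chaperones of the cytosol and mitochondria all called members were lower. Of 21 tested members, 13 were lower and none was higher, with a median of -0.23. Of the 21, 20 had a log2 fold change below 0, as 48.3% of all tested genes did. HSPA1A, a heat-inducible HSP70, was at 123, 119 and 117 CPM in NG and 96.3, 90.97 and 91.5 CPM in LGCAR (log2 fold change -0.36 with SE 0.0517, adjusted p = 0.001799 by edgeR), but its near-identical copy HSPA1B (-0.34) can share its reads, so neither value stands alone. DNAJB1, a cochaperone of HSP70, fell from 190.0, 193 and 203 CPM to 156, 156 and 159 CPM (log2 fold change -0.32 with SE 0.0495, adjusted p = 0.00295 by edgeR). Lower chaperones numbered 15, 8 and 6 with NG 1, 2 and 3 left out in turn and 5, 10 and 8 with LGCAR 1, 2 and 3 left out in turn.

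Some genes of amino acid supply and of the ATF4 program were called lower. ATF4 itself was at 265, 268 and 291 CPM in NG and 208, 208 and 212 CPM in LGCAR (log2 fold change -0.40 with SE 0.0679, adjusted p = 0.00513 by edgeR), with all LGCAR libraries below all NG libraries. Its log2 fold change was -0.14 in LG and -0.11 in CAR. Of 20 regulators of the integrated stress response, 7 were lower and none higher (median -0.15), and lower regulators numbered 7, 4 and 1 with NG 1, 2 and 3 left out in turn and 2, 4 and 2 with LGCAR 1, 2 and 3 left out in turn. ATF3, a stress-induced factor of the same family, fell by 0.45 and lost its call without NG 3 or LGCAR 1 (adjusted p up to 0.06601).

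Enzymes of serine, asparagine and one-carbon metabolism were mostly lower among those called. PSAT1, an aminotransferase of serine synthesis, was at 136, 137 and 146 CPM in NG and 105, 108 and 107 CPM in LGCAR (log2 fold change -0.39 with SE 0.0566, adjusted p = 0.00194 by edgeR). ASNS, asparagine synthetase, whose promoter is printed above, was at 126, 125 and 133 CPM and 101, 100.4 and 99.9 CPM (log2 fold change -0.35 with SE 0.0478, adjusted p = 0.00158 by edgeR), and 44.6% of its exon length overlaps another gene on the same strand. PHGDH, which draws serine from glycolysis, fell by 0.62, and it lost its call without NG 2, NG 3, LGCAR 2 or LGCAR 3 (adjusted p up to 0.145). In all, 7 of 21 tested enzymes were lower. The median was -0.13. Lower enzymes numbered 8, 3 and 2 with NG 1, 2 and 3 left out in turn and 3, 3 and 3 with LGCAR 1, 2 and 3 left out in turn.

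Most carriers and tRNA-loading enzymes were not called, and those that were called were lower. SLC3A2, the heavy chain of several amino acid exchangers, fell from 315, 310.2 and 331 CPM to 229.8, 226 and 232 CPM (log2 fold change -0.48 with SE 0.0519, adjusted p = 0.000182 by edgeR). SLC6A9, a glycine carrier (-0.34), and SLC1A5, a glutamine carrier (-0.23), also kept their calls, though 23.8% of the exon length of SLC1A5 overlaps a gene on the opposite strand and its call was lost with NG 1 and LGCAR 3 both left out. These were 3 of 4 lower among 21 transporters, whose median was 0.00 with 10 members above 0, and with the length trend removed 7 were lower and the median was -0.10. Lower transporters numbered 3, 3 and 3 with NG 1, 2 and 3 left out in turn and 3, 3 and 3 with LGCAR 1, 2 and 3 left out in turn. Of 20 cytosolic aminoacyl-tRNA synthetases 7 were lower and none higher, with a median of -0.15. WARS1 was at 205, 211 and 220.4 CPM in NG and 166, 173 and 165 CPM in LGCAR (log2 fold change -0.34 with SE 0.0489, adjusted p = 0.001799 by edgeR), and MARS1 fell by 0.25. Among the 7 synthetases with TGATGNAA in a promoter, CARS1 (-0.21), GARS1 (-0.27), MARS1 and TARS1 (-0.25) were lower, and AARS1 (-0.02), IARS1 (0.00) and NARS1 (-0.16) were not called. Lower synthetases numbered 10, 4 and 2 with NG 1, 2 and 3 left out in turn and 3, 5 and 2 with LGCAR 1, 2 and 3 left out in turn.

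The stress effectors that ATF4 can induce all had log2 fold changes below 0, 7 of 14 of them called, with a median of -0.22. VEGFA, the main growth factor of blood vessels, was at 380.0, 369 and 359.9 CPM in NG and 290.1, 295 and 270.2 CPM in LGCAR (log2 fold change -0.37 with SE 0.0573, adjusted p = 0.00258 by edgeR), and its log2 fold change was -0.64 with the trend removed. SESN2, a stress-induced inhibitor of growth signalling, fell by 0.40 and lost its call without NG 2, NG 3, LGCAR 1, LGCAR 2 or LGCAR 3 (adjusted p up to 0.0985). CHAC1, which degrades glutathione, was lower as well (-0.55, adjusted p = 0.0417). Lower effectors numbered 5, 1 and 1 with NG 1, 2 and 3 left out in turn and 2, 1 and 1 with LGCAR 1, 2 and 3 left out in turn.

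**Figure D3:**
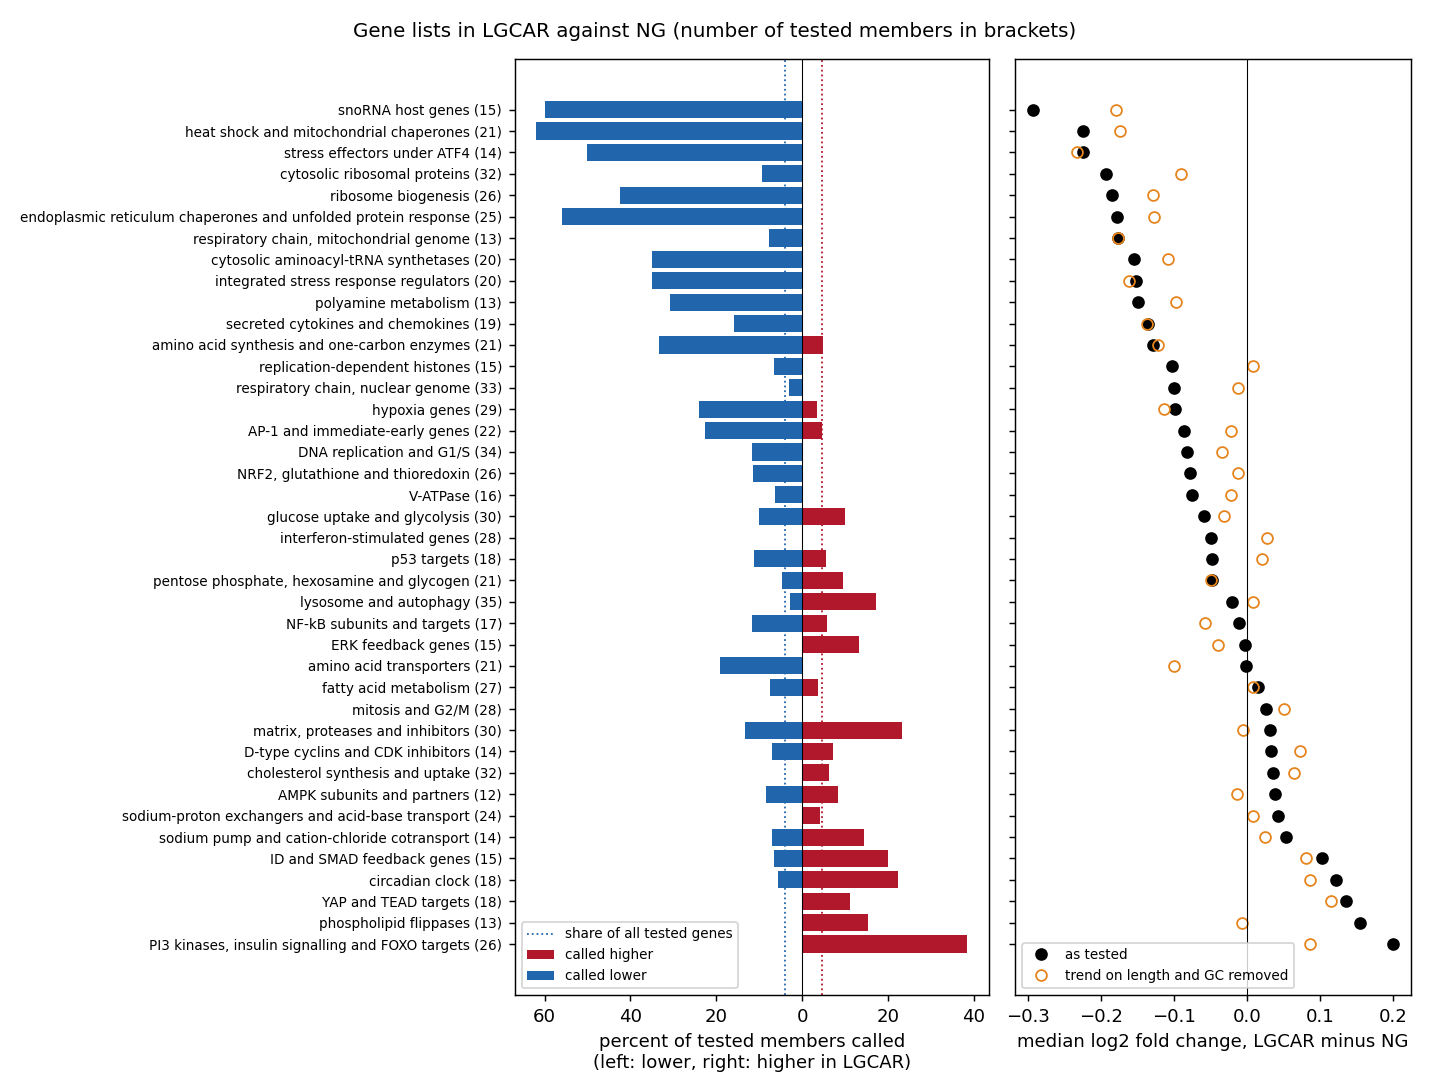
Left, percent of the tested members that were called lower (to the left) or higher (to the right) in LGCAR, with dotted lines at 4.12% and 4.63%, the shares over all tested genes, for the lists with at least 12 tested members other than cell type markers. Right, median log2 fold change of each list, as tested (filled) and with the trend on length and GC content removed (open); snoRNA host genes (-0.29) and PI3 kinase genes (0.20) mark the ends among these lists, and both lie nearer 0 with the trend removed (-0.18 and 0.09).

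Of factors and RNA hosts of ribosome production, a part was called lower and none higher. NOP56, a core protein of the box C/D particles that modify ribosomal RNA, was at 117, 120.5 and 133 CPM in NG and 98.5, 93.8 and 96.5 CPM in LGCAR (log2 fold change -0.36 with SE 0.0631, adjusted p = 0.005295 by edgeR). Of 26 tested factors of ribosome biogenesis 11 were lower and none was higher, with a median of -0.19. Lower factors numbered 13, 6 and 1 with NG 1, 2 and 3 left out in turn and 2, 4 and 5 with LGCAR 1, 2 and 3 left out in turn. Of 15 host genes of small nucleolar RNA, which guide that modification, 9 were lower (median -0.29, or -0.18 with the length trend removed). SNHG32 fell from 129, 127 and 144 CPM to 105, 105 and 105 CPM (log2 fold change -0.35 with SE 0.06098, adjusted p = 0.005295 by edgeR), or by -0.21 with the trend removed, and 29.1% of its exon length overlaps another gene on the same strand. Lower host genes numbered 11, 3 and 1 with NG 1, 2 and 3 left out in turn and 2, 3 and 3 with LGCAR 1, 2 and 3 left out in turn.

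Ribosomal proteins were all on one side but seldom passed the test. All 32 tested members had log2 fold changes below 0, from -0.30 to -0.11, with a median of -0.19, yet edgeR called 3 (RPL6 at -0.27, RPL27 at -0.22 and RPL35 at -0.30, or -0.17, -0.12 and -0.17 with the trend removed) and DESeq2 called 24. Their median was -0.05 in LG and -0.08 in CAR, and -0.09 in LGCAR with the length trend removed. Their transcripts are short, with a median of 1783.5 bases. Lower members by edgeR numbered 20, 0 and 0 with NG 1, 2 and 3 left out in turn and 0, 0 and 0 with LGCAR 1, 2 and 3 left out in turn. Of 13 genes of polyamine metabolism 4 were lower, among them ODC1, the rate-limiting enzyme, which fell from 118, 131 and 132 CPM to 100.4, 104 and 101 CPM (log2 fold change -0.32 with SE 0.0555, adjusted p = 0.00519 by edgeR). Lower polyamine genes numbered 4, 1 and 1 with NG 1, 2 and 3 left out in turn and 1, 1 and 1 with LGCAR 1, 2 and 3 left out in turn.

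Transcripts of the mitochondrial genome lay mostly below NG in value, with 1 call. Of 13 tested subunits 12 had a log2 fold change below 0, with a median of -0.18 in LGCAR, 0.01 in LG and 0.07 in CAR, and only CYTB, a subunit of complex III, was called. CYTB was at 3410.3, 3649 and 3958 CPM in NG and 3067, 3067 and 2927 CPM in LGCAR (log2 fold change -0.28 with SE 0.0747, adjusted p = 0.0317 by edgeR), and it lost its call without NG 2, NG 3, LGCAR 1, LGCAR 2 or LGCAR 3 (adjusted p up to 0.153). Nuclear subunits of the respiratory chain had a median of -0.10, which was -0.01 with the length trend removed, and 1 of 33 was called, ATP5MC1 (-0.27), a call lost without NG 2, NG 3, LGCAR 1, LGCAR 2 or LGCAR 3 (adjusted p up to 0.169) and with the trend removed (adjusted p = 0.0559).

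**Figure D4:**
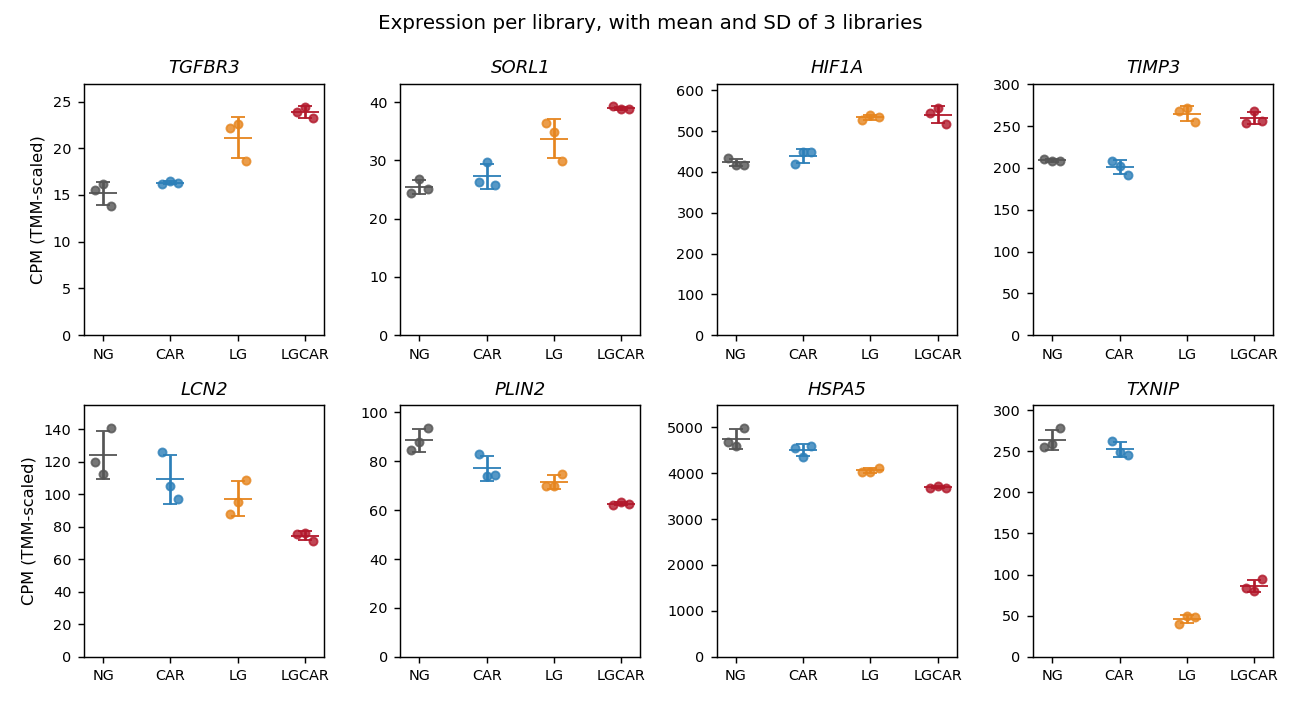
CPM of 8 genes in each library (points), with the mean (bar) and SD (whiskers) of the 3 libraries per group; the vertical axes start at 0. TGFBR3, SORL1, HIF1A and TIMP3 are higher and LCN2, PLIN2, HSPA5 and TXNIP lower in LGCAR than in NG with no overlap, and TXNIP, at 79.8 to 94.5 CPM in LGCAR and 40.6 to 49.9 CPM in LG, is the one of the 8 called different between those groups. For TGFBR3, SORL1, LCN2 and TXNIP the rule that chose them required no overlap between LGCAR and NG.

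Enzymes of glucose metabolism did not move together. Of 30 tested genes of glucose uptake and glycolysis 3 were higher and 3 lower, with a median of -0.06, or -0.03 with the length trend removed. SLC2A1, the main glucose carrier, was at 467, 485 and 475 CPM in NG and 406, 421 and 425 CPM in LGCAR (log2 fold change -0.19 with SE 0.0471, adjusted p = 0.0263 by edgeR). SLC2A12, another carrier, rose by 0.46, with 38.9% of its exon length shared with a gene on the opposite strand, and PFKFB2, which sets the level of an activator of phosphofructokinase, rose by 0.38, or 0.23 with the trend removed. SLC2A1 and PFKFB2 kept their calls only without NG 1 among the fits with a library left out, and SLC2A12 lost its call without NG 2, NG 3, LGCAR 2 or LGCAR 3 (adjusted p up to 0.0827). Lower members numbered 6, 0 and 0 with NG 1, 2 and 3 left out in turn and 0, 0 and 0 with LGCAR 1, 2 and 3 left out in turn, and higher members 3, 0 and 0 with NG 1, 2 and 3 left out in turn and 1, 0 and 0 with LGCAR 1, 2 and 3 left out in turn.

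Side branches gave few calls: UAP1, an enzyme of the hexosamine pathway, was lower (-0.20, or -0.13 with the trend removed), and PYGB (0.19), a glycogen phosphorylase, was higher. UAP1 lost its call without NG 3, LGCAR 1, LGCAR 2 or LGCAR 3 (adjusted p up to 0.102), and PYGB without NG 2, NG 3, LGCAR 1, LGCAR 2 or LGCAR 3 (adjusted p up to 0.212). Of the 9 tested targets of MondoA and ChREBP, 3 were lower, TXNIP, ARRDC4 and KLF10, in all 6 fits with a library left out. ACACB, an acetyl-CoA carboxylase, was higher (0.43, adjusted p = 0.0399) and was called in none of those fits.

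TXNIP, an arrestin-like protein that restrains glucose uptake, was the one gene called different by edgeR between the combined treatment and lower glucose alone. It was at 255, 259 and 278 CPM in NG, 263, 249 and 245 CPM in CAR, 40.6, 49.9 and 48.6 CPM in LG and 84.2, 79.8 and 94.5 CPM in LGCAR. The LGCAR libraries lay above all LG libraries and below all NG and CAR libraries. Against LG the log2 fold change was 0.90 (SE 0.0766, edgeR adjusted p = 4.59e-05), the only call of that comparison (0.00662% of 15104 genes), in which 1801 genes had an unadjusted p under 0.05 and DESeq2 called 20. The change with cariporide at 5 mM minus that at 10 mM glucose was 0.96 on the log2 scale (SE 0.105, edgeR adjusted p = 0.00138), and 1.002 (adjusted p = 0.0595) with the ribosomal RNA percentage in the model, where TXNIP was not called. It was again the only call (0.00662%), with 472 genes at an unadjusted p under 0.05 and 5 called by DESeq2. If none of the 15104 genes differed, about 755 would be under that p. The 472 of the interaction are fewer than that, and the 1801 against LG are more. A missing call does not show that LGCAR and LG were alike in the other genes.

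Against cariporide alone more genes differed. In LGCAR against CAR 249 genes were called (1.65%), 147 higher and 102 lower, but 18 with each library's ribosomal RNA percentage in the model, 69 without CAR 3, and 51 to 67 without 1 LGCAR library. The genes named here were chosen by their LGCAR values, so their differences from CAR rest on the same libraries. MIR22HG (-0.65, edgeR adjusted p = 0.000173) and TIMP3 (0.37, edgeR adjusted p = 0.00108) differed from CAR in the direction in which they differed from NG. ODC1 (-0.12, edgeR adjusted p = 0.278) and NTNG2 (0.42, edgeR adjusted p = 0.0607) did not pass.

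Genes of the matrix and its proteases changed in both directions. PLAT, an activator of plasminogen, fell from 244, 257 and 255 CPM to 186, 184 and 191 CPM (log2 fold change -0.43 with SE 0.0604, adjusted p = 0.00177 by edgeR). TIMP3, a matrix-bound inhibitor of metalloproteinases (chromosome 22, 32801705 to 32863041), rose from 211, 209 and 208 CPM to 254, 268 and 256 CPM (log2 fold change 0.31 with SE 0.0468, adjusted p = 0.00234 by edgeR). For both genes the NG and LGCAR libraries did not overlap. Of 30 tested genes of the matrix 7 were higher, among them the laminin chains LAMA3 (0.34), LAMA5 (0.24) and LAMC1 (0.25), and 4 were lower, with the collagenase MMP1 (-0.28) and the urokinase receptor PLAUR (-0.26) among them. Lower members numbered 3, 2 and 2 with NG 1, 2 and 3 left out in turn and 2, 2 and 2 with LGCAR 1, 2 and 3 left out in turn. Higher members numbered 7, 3 and 2 with NG 1, 2 and 3 left out in turn and 2, 4 and 4 with LGCAR 1, 2 and 3 left out in turn, and 4 were higher with the length trend removed.

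Targets of BMP signalling gave 3 genes called higher. ID1 (0.48), ID3 (0.49) and SMAD6 (0.58), which BMP signals induce, were higher, and the list they belong to had a median of 0.10 over 15 genes. ID1 was at 15.1, 17.8 and 14.7 CPM in NG and 21.3, 20.7 and 24.1 CPM in LGCAR and lost its call without NG 3 or LGCAR 3 (adjusted p up to 0.0651). SMAD6 lost its call without LGCAR 1 or LGCAR 3 (adjusted p up to 0.0623). Of 18 targets of YAP and TEAD 2 were higher (11.1%, against 4.63% of all tested genes), LATS2 (0.25) and CRIM1 (0.28, or 0.17 with the trend removed). Of the 18, 15 had a log2 fold change above 0, while 48.3% of all tested genes were below 0. LATS2 lost its call without NG 2, NG 3, LGCAR 1 or LGCAR 3 (adjusted p up to 0.116), and CRIM1 without NG 2, NG 3, LGCAR 1, LGCAR 2 or LGCAR 3 (adjusted p up to 0.151).

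Immediate-early genes were mostly lower among those called, and the phosphatases DUSP10 and DUSP4 were higher. FOS was at 19.1, 16.6 and 15.2 CPM in NG and 6.33, 6.73 and 5.95 CPM in LGCAR, and FOSB at 8.24, 5.75 and 5.22 CPM and 3.19, 3.65 and 2.07 CPM. Of 22 tested members 5 were lower and FOSL2 was higher (0.17), with a median of -0.09, or -0.02 with the length trend removed. Lower members numbered 4, 4 and 2 with NG 1, 2 and 3 left out in turn and 2, 3 and 3 with LGCAR 1, 2 and 3 left out in turn. Of 15 genes listed for feedback on ERK 2 were higher and none was lower, though the listed DUSP10 acts on other kinases. DUSP10, which acts on the stress kinases p38 and JNK, was at 45.3, 42.04 and 46.2 CPM in NG, 67.7, 65.4 and 70.97 CPM in LG and 60.3, 59.8 and 51.6 CPM in LGCAR (log2 fold change 0.36 with SE 0.0641, adjusted p = 0.00559 by edgeR against NG). DUSP4 rose by 0.22, or 0.15 with the trend removed, and lost its call without NG 2, NG 3, LGCAR 1, LGCAR 2 or LGCAR 3 (adjusted p up to 0.165).

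Calls in the hypoxia list went in both directions, and most of its members were not called. HIF1A, the oxygen-sensitive factor (chromosome 14, 61695513 to 61748258), was higher, at 434, 418 and 418 CPM in NG and 544, 558 and 517 CPM in LGCAR (log2 fold change 0.35 with SE 0.0471, adjusted p = 0.00125 by edgeR). Of 29 genes it was the 1 called higher, and 7 were lower, among them VEGFA, ADM (-0.44), BNIP3 (-0.31) and PLOD2 (-0.22), with a median of -0.10. HIF1A was at 528, 539 and 535 CPM in LG and 419, 448 and 449 CPM in CAR. PLOD2 lost its call without NG 3, LGCAR 1 or LGCAR 3 (adjusted p up to 0.0587). Lower members of the list numbered 9, 3 and 1 with NG 1, 2 and 3 left out in turn and 1, 4 and 2 with LGCAR 1, 2 and 3 left out in turn.

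Insulin and PI3 kinase signalling held, by count, the most genes called higher of any list. Of 26 tested members 10 were higher and none was lower, among them the receptors INSR (0.29) and IGF1R (0.43), the adaptors IRS1 (0.27) and IRS2 (0.35), and FOXO3 (0.38). PIK3C2B, a class II PI3 kinase, was at 4.79, 3.82 and 3.53 CPM in NG and 6.28, 7.35 and 7.02 CPM in LGCAR (log2 fold change 0.77 with SE 0.145, adjusted p = 0.00791 by edgeR), and lost its call without NG 3 (adjusted p up to 0.0587). The list also had long transcripts, with a median of 6465 bases. Its median of 0.20 became 0.09 with the length trend removed, with 4 genes called, and IRS1 was then at 0.05 (adjusted p = 0.484) and IRS2 at 0.17. IRS1 lost its call without NG 2, NG 3, LGCAR 1, LGCAR 2 or LGCAR 3 (adjusted p up to 0.118), and IRS2 without NG 2, NG 3, LGCAR 1, LGCAR 2 or LGCAR 3 (adjusted p up to 0.138). Higher members numbered 10, 1 and 0 with NG 1, 2 and 3 left out in turn and 1, 2 and 1 with LGCAR 1, 2 and 3 left out in turn.

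Mucins and flippases, also encoded by long transcripts, also moved toward 0 with the trend removed. MUC5AC, a gel-forming mucin with a transcript of 17448 bases, was at 6.73, 7.88 and 6.84 CPM in NG and 13.8, 14.3 and 11.2 CPM in LGCAR, and with the trend removed its log2 fold change went from 0.88 to 0.54 (adjusted p = 0.0782). MUC5B was at 2.32, 2.95 and 2.34 CPM in NG, 1.84, 1.73 and 1.08 CPM in CAR, 5.602, 6.61 and 6.12 CPM in LG and 3.73, 4.602 and 4.73 CPM in LGCAR (log2 fold change 0.78 with SE 0.176, adjusted p = 0.0177 by edgeR). Its call was lost without NG 3, LGCAR 2 or LGCAR 3 (adjusted p up to 0.0955), and with the trend removed the change was 0.44 (adjusted p = 0.192). Of 13 flippase genes ATP8A1 and TMEM30A, their shared subunit, were higher (2 in all), TMEM30A with a call that was lost without any one of the 6 libraries, and the median of 0.15 became -0.01 with the trend removed.

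Clock genes gave 4 higher and 1 lower of 18 (27.8% called, against 8.75% of all tested genes). NPAS2, a partner of BMAL1, was at 94, 91.6 and 90.8 CPM in NG and 112, 112 and 113 CPM in LGCAR (log2 fold change 0.28 with SE 0.0431, adjusted p = 0.00239 by edgeR), but at 0.10 (adjusted p = 0.259) with the trend removed. PER1 (0.34), NR1D2 (0.30) and DBP (0.70) were the others called higher, and the repressor NFIL3 was lower (-0.29). DBP lost its call without NG 2, NG 3, LGCAR 1 or LGCAR 3 (adjusted p up to 0.123), and NFIL3 without NG 3, LGCAR 1 or LGCAR 3 (adjusted p up to 0.112). Higher clock genes numbered 5, 1 and 1 with NG 1, 2 and 3 left out in turn and 1, 2 and 1 with LGCAR 1, 2 and 3 left out in turn.

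Ion and acid transport, the system the drug acts on, had few calls. Of 24 tested exchangers, carriers and carbonic anhydrases CA12, an anhydrase of the outer cell surface, was the one called higher, and none was lower (4.17% called, against 8.75% of all tested genes). CA12 was at 17.9, 19.5 and 18.4 CPM in NG, 18.7, 16.8 and 15.98 CPM in CAR, 25.3, 28.04 and 27.9 CPM in LG and 26.5, 28.7 and 22.5 CPM in LGCAR (log2 fold change 0.48 with SE 0.0874, adjusted p = 0.00661 by edgeR against NG), and with the trend removed at 0.35 (adjusted p = 0.0587). The LGCAR and LG libraries overlapped. FXYD5, a regulator of ion pumps, was lower (-0.25, or -0.15 with the trend removed). FXYD5 lost its call without NG 2, NG 3, LGCAR 1, LGCAR 2 or LGCAR 3 (adjusted p up to 0.185). Of 16 subunits of the V-ATPase, the proton pump of endosomes and lysosomes, ATP6V0A2 was lower (-0.28), not without NG 3 or LGCAR 2 (adjusted p up to 0.0617). It was the only call of that list (6.25%, against 8.75% of all tested genes).

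Lysosomal and lipid genes moved singly. Of 35 genes of lysosomes and autophagy 6 were higher, among them FNIP1 (0.45) and FLCN (0.21), partners that report on lysosomal amino acids, and the cathepsin gene CTSD (0.24, with 41.7% of its exon length shared on the same strand), and WIPI1 was lower (-0.31). Calls in both directions made up 20% of that list, against 8.75% of all tested genes. FNIP1 lost its call without NG 2, NG 3, LGCAR 1 or LGCAR 2 (adjusted p up to 0.0771), and CTSD without NG 2, NG 3, LGCAR 1, LGCAR 2 or LGCAR 3 (adjusted p up to 0.0973). Higher members numbered 6, 1 and 0 with NG 1, 2 and 3 left out in turn and 0, 0 and 3 with LGCAR 1, 2 and 3 left out in turn. PLIN2, the coat protein of lipid droplets (chromosome 9, 19108388 to 19127492), fell from 84.4, 87.7 and 93.5 CPM to 62.05, 63.4 and 62.4 CPM (log2 fold change -0.50 with SE 0.0581, adjusted p = 0.000318 by edgeR). NPC1, which exports cholesterol from lysosomes, rose from 174, 174 and 175 CPM to 211, 213 and 198 CPM (log2 fold change 0.25 with SE 0.0469, adjusted p = 0.00731 by edgeR), and lost its call without LGCAR 1 (adjusted p up to 0.0531). It was 1 of 2 higher among 32 genes of cholesterol supply (6.25%, against 4.63% of all tested genes). FASN, fatty acid synthase, was at 827, 749 and 678 CPM in NG and 988, 899 and 993 CPM in LGCAR (log2 fold change 0.35 with SE 0.0874, adjusted p = 0.0275 by edgeR), with no overlap. Its log2 fold change was 0.15 with the trend removed, and it lost its call without NG 2, NG 3, LGCAR 1, LGCAR 2 or LGCAR 3 (adjusted p up to 0.135).

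Most proliferation and redox genes were not called. Members called lower made up 11.8% of the DNA replication list and 11.5% of the antioxidant list, against 4.12% of all tested genes. Of 28 mitotic genes edgeR called none, DESeq2 called 1 and 7 had an unadjusted p under 0.05, with a median log2 fold change of 0.03. Of 34 genes of DNA replication 4 were lower, among them CDC6, an origin licensing factor, at 84.7, 88.2 and 93.1 CPM in NG and 71.96, 76.3 and 76.7 CPM in LGCAR (log2 fold change -0.24 with SE 0.05504, adjusted p = 0.0184 by edgeR). CDC6 lost its call without NG 2, NG 3, LGCAR 1 or LGCAR 2 (adjusted p up to 0.105). Lower replication genes numbered 4, 0 and 0 with NG 1, 2 and 3 left out in turn and 0, 0 and 2 with LGCAR 1, 2 and 3 left out in turn. Of 26 antioxidant genes 3 were lower: HMOX1 (-0.34), GCLC (-0.24) and SRXN1 (-0.22), and for SRXN1 84.95% of the exon length overlaps a second gene transcribed the same way. HMOX1 lost its call without NG 3 or LGCAR 3 (adjusted p up to 0.0684), GCLC without NG 3, LGCAR 1 or LGCAR 3 (adjusted p up to 0.0735) and SRXN1 without NG 2, NG 3, LGCAR 1 or LGCAR 3 (adjusted p up to 0.0753). AEN, a nuclease induced by p53, fell from 27.7, 27.5 and 29.6 CPM to 22.1, 22 and 22.8 CPM (log2 fold change -0.34 with SE 0.0614, adjusted p = 0.005801 by edgeR). It was 1 of 2 lower among 18 tested targets of p53, whose median was -0.05. BBC3 was the 1 target called higher, a call lost without any one of the 6 libraries.

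Among markers of cell state, the keratins KRT18 (-0.28, or -0.18 with the trend removed) and KRT19 (-0.21, or -0.11) were lower and CDH1, E-cadherin, was higher from a low level, at 1.14, 1.305 and 1.104 CPM in NG and 1.72, 2.47 and 1.97 CPM in LGCAR (log2 fold change 0.79 with SE 0.212, adjusted p = 0.0335 by edgeR). CDH1 lost its call without any one of the 6 libraries, KRT18 without NG 2, NG 3, LGCAR 1 or LGCAR 2 (adjusted p up to 0.07702) and KRT19 without NG 2, NG 3, LGCAR 1, LGCAR 2 or LGCAR 3 (adjusted p up to 0.131). MYLK, the kinase of smooth muscle myosin, rose from 133, 122 and 115 CPM to 172, 168 and 169 CPM (log2 fold change 0.46 with SE 0.0776, adjusted p = 0.00513 by edgeR), or 0.24 with the trend removed. OXTR, the oxytocin receptor and the other basal marker called, was higher (0.42), a call lost without NG 2, NG 3, LGCAR 1 or LGCAR 2 (adjusted p up to 0.134). The median of the basal list was 0.35, or 0.15 with the trend removed. Of the 10 mesenchymal markers tested edgeR called none, DESeq2 called 1 and 4 had an unadjusted p under 0.05. The summed level of the mesenchymal list was 4035 to 4172 CPM in NG and 4299 to 4424 CPM in LGCAR, of the epithelial and luminal list 1741 to 1829 and 1558 to 1644 CPM, and of the basal list 1178 to 1216 and 1278 to 1307 CPM. AXL, a receptor kinase, went from a mean of 699 to 976 CPM in the mesenchymal list, while VIM went from 1736 to 1675 and FN1 from 692 to 645 CPM. The fibroblast list summed to 23.6 to 27.8 CPM in NG and 28.96 to 29.7 CPM in LGCAR, with PDGFRB called (0.35), a call lost without NG 2, NG 3, LGCAR 1, LGCAR 2 or LGCAR 3 (adjusted p up to 0.154) and with the trend removed (adjusted p = 0.0628). The leukocyte list summed to 61.3 to 62.9 and 61.9 to 65.8 CPM, and the endothelial list to 4.88 to 5.69 and 5.26 to 6.43 CPM, with no member called by edgeR or DESeq2 and 0 with an unadjusted p under 0.05. The part of these markers in the other results was not tested.

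Across settings 117 called genes were named by the rule given with the methods. Of these, 42 kept their call with any one library left out, and 37 of them (8 higher, 29 lower) also did so under every other setting in which they were tested. With the trend on length and GC content removed 16 of the 117 lost their call.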

How the data were processed

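Per the labels' protocols, total RNA was extracted with Trizol, and 12 libraries were prepared with a directional NEBNext Ultra II kit. The deposited values were the authors' counts per gene symbol, 1 table for each library. The build GRCh38 and the tools STAR, Salmon, fastp and GATK are credited to the submitters' processing notes. Their versions, the tool that counted and its strand setting: not given in the sources used here.

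CPM, log2 fold changes and tests were computed here with edgeR 4.0.16 in R 4.3.3: filterByExpr, TMM, and the robust quasi-likelihood fit of all 12 libraries with 1 mean per group, genes called at an adjusted p under 0.05. Alternatives used other scalings and filters, DESeq2 1.42.0, limma-voom (limma 3.58.1), fewer libraries and covariates. The test was checked on simulated data with genes drawn independently and no length trend. That check does not cover shifts shared by many genes of a library, such as the length trend. Members, 49 gene lists and rules were chosen with earlier results of these data known. The rule named the 12 highest and 12 lowest called genes (group means reaching 5 CPM, libraries not overlapping, symbol of 1 known gene), then for each list the 3 called members of smallest p, and calls of the interaction; some items are not reported here; other members are named as examples chosen after their values were seen. The trend on length and GC content (loess, span 0.3, longest GENCODE 29 transcript) was added after the data were seen, and genes without a length were left uncorrected. Exon overlap is also from GENCODE 29. Deviations of same-numbered NG and LGCAR libraries had correlations of 0.14, 0.06 and 0.01. These do not settle whether the libraries are paired, and the main fit did not take numbers as pairs. Matplotlib 3.10.9 (Python 3.11.15) drew the figures.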

Additional observations from a re-analysis of the deposited data

Results flagged for a closer look

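TXNIP was selected because the effect of cariporide on it differed between the glucose levels. Cariporide changed it by -0.06 on the log2 scale at 10 mM glucose and by 0.90 at 5 mM, a difference of 0.959 by the interaction term (SE 0.105, edgeR adjusted p = 0.00138). With the ribosomal RNA share as covariate TXNIP was not called (1.002, edgeR adjusted p = 0.0595), and in the other settings its adjusted p was at most 0.0105. All 3 LGCAR libraries were above all 3 LG libraries, while CAR libraries (263, 249 and 245 CPM) and NG libraries (255, 259 and 278 CPM) overlapped. Groups of 3 libraries were not examined for outlying samples.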

How the results depend on the processing

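LGCAR against NG gave 1322 called genes, 3542 with only the 6 libraries compared, 682 with the replicate block, 263 with NG 1 and LGCAR 3 left out together, and 136 to 1544 with 1 library left out. The share of called genes that were higher, 52.95%, lay on either side of 50% between settings. It was 45.8% with RLE size factors, 41.2% with no filter, 56.1% at a mean of at least 5 CPM, 46.5% with ribosomal RNA genes left out, 47.1% with NG 1 and LGCAR 3 out, 44.4% with the length and GC trend removed, and 44.3% to 53.8% with 1 library left out. LGCAR against LG gave 1 called gene, 15 with no filter, 20 with DESeq2, 2 with NG 1 and LGCAR 3 out, 5 with the trend removed and 1 to 3 with 1 library out. LGCAR against CAR gave 249, 391 with no filter, 416 with DESeq2, 135 with the replicate block, 18 with the ribosomal RNA share as covariate, 55 with NG 1 and LGCAR 3 out, 722 with the trend removed and 51 to 188 with 1 library out. The interaction gave 1, 2 with no filter, 5 with DESeq2, 0 with the ribosomal RNA share as covariate (TXNIP lost its call), 2 with NG 1 and LGCAR 3 out and 1 to 3 with 1 library out. The cause of these shifts was not tested.

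The medians of 6 lists, chosen after the counts were seen, moved by more than the spread between replicates in some settings. With the ribosomal RNA share as covariate they were -0.13 for stress response regulators, -0.19 for heat shock, -0.15 for ribosome biogenesis, 0.16 for PI3 kinase genes and -0.24 for snoRNA hosts. With NG 1 and LGCAR 3 out they were -0.19 for regulators, -0.22 for endoplasmic reticulum genes, -0.25 for heat shock, -0.20 for ribosome biogenesis and 0.25 for PI3 kinase genes. With the trend removed they were -0.13 for endoplasmic reticulum genes, -0.17 for heat shock, -0.13 for ribosome biogenesis, 0.087 for PI3 kinase genes and -0.18 for snoRNA hosts. Ribosome biogenesis was also at -0.19 with RLE, DESeq2 or the compared groups alone, -0.199 with library totals, -0.20 with no filter or ribosomal RNA genes out and -0.18 at 5 CPM, where PI3 kinase genes were at 0.23. With 1 library out the medians ran from -0.19 to -0.13 (regulators), -0.20 to -0.16 (endoplasmic reticulum), -0.24 to -0.18 (heat shock), -0.21 to -0.16 (ribosome biogenesis), 0.16 to 0.23 (PI3 kinase) and -0.34 to -0.24 (snoRNA hosts). The flippase median changed sign with the trend removed (0.15 to -0.01). Replicate numbers were not taken as pairs, and the correlations do not settle whether they pair the libraries. NG 1 correlated best with LGCAR 1 (0.14) and NG 2 with LGCAR 2 (0.06), but NG 3 with LGCAR 2 (0.15). With the replicate block 26 of 117 named calls were lost. With 3 libraries per group and a biological coefficient of variation of 6.94%, genes at low counts were tested with less precision.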
